A study of Sus scrofa with 599 samples.

Results

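Mesenteric adipose (MAD), the visceral fat in the fold that carries the vessels and lymph nodes of the intestine, was compared between pigs that had gained weight (WG) and pigs that had then lost it (WL). The members were chosen by their labels: 36 WG and 10 WL MAD libraries of RNA-seq, and 37 WG and 10 WL MAD libraries of in situ Hi-C, a method that maps contacts within chromosomes. These were 46 and 47 of the 599 libraries of the series. All animals were female Bama pigs, a Chinese miniature breed, 2 years old at the start. WG pigs had been fed high-fat feed over 22 weeks. WL pigs had the same feeding first and were afterwards restricted, over 12 weeks, to 10% of normal intake. Pigs on a normal diet (NC, 12 MAD libraries of RNA-seq) are given as the background. WG and WL pigs were different animals, and WL pigs were also 12 weeks older, so that the loss of weight, the restricted food and the age cannot be told apart. All pigs were fasted overnight before sampling.

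White adipocytes make fatty acids from glucose by de novo lipogenesis, esterify them to triglyceride in a lipid droplet, and release them again by lipolysis when food is short. Insulin and carbohydrate raise the lipogenic enzymes through the transcription factors SREBF1 and MLXIPL, and catecholamines start lipolysis through beta-adrenergic receptors. Mesenteric fat encloses lymph nodes and is rich in immune cells, which send their signals through chemokines and antibodies.

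The libraries held 4.84 to 22.8 M estimated counts on coding genes in WG (median 17.4 M) and 12.6 to 18.7 M in WL (15.8 M). The adipocyte markers ADIPOQ, PLIN1, CIDEC, LIPE and FABP4 were present in every library. ADIPOQ, which codes for adiponectin, was lowest at 1091 TPM in WG and 478 TPM in WL (a level scaled for gene length and depth). A set of libraries stood apart by their lymphocyte markers. The summed TPM of the T and B cell markers was 2953, 4533 and 8971 in WL replicates 1, 6 and 7 and 4532 in WG replicate 31, and 490.5 or less in every other WG or WL library. ADIPOQ was 478 TPM in WL replicate 6 and 749 TPM in WL replicate 7, the lowest values of both groups. The share of TPM on genes encoded in mitochondria also differed, at 11.3% ± 9.44 (SD, n = 36) in WG and 1.96% ± 0.739 (SD, n = 10) in WL (permutation test, two-sided, p = 0.00012). The share on coding genes as a whole was 93.5% ± 5.24 (SD, n = 36) and 86.3% ± 5.67 (SD, n = 10) (permutation test, p = 0.0019). For the gene lists and many of the named genes, values without the 4 lymphoid-rich libraries or with the mitochondria-encoded share as a covariate are given beside the result. In bulk tissue, fewer cells of a type and less RNA per cell cannot be told apart.

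**Figure D1:**
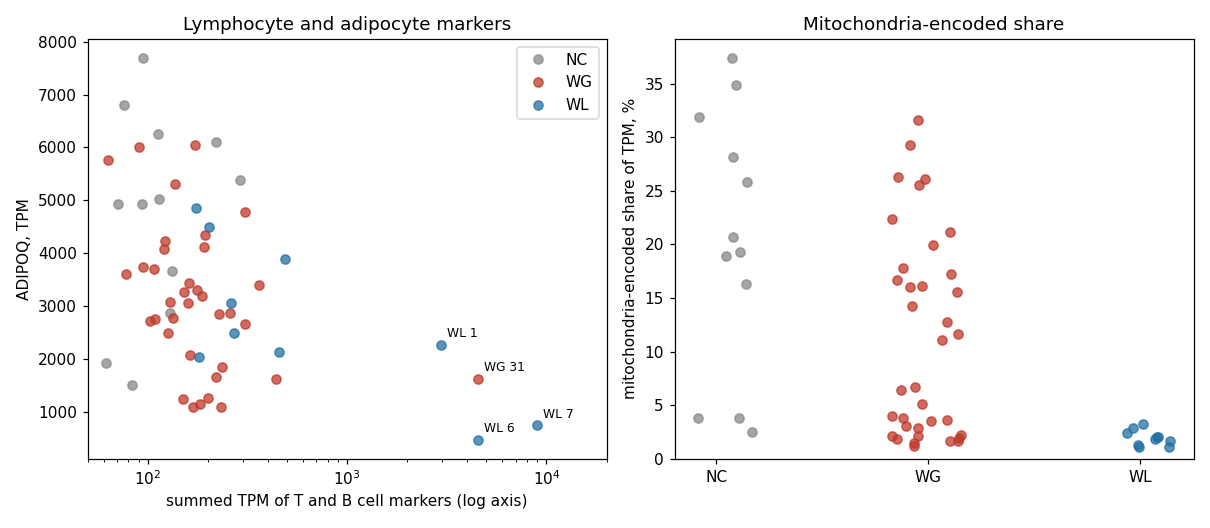
Left, ADIPOQ in TPM against the summed TPM of T and B cell markers (log axis), 1 point per MAD library of the NC, WG and WL groups. Right, the mitochondria-encoded share of TPM in percent. WL replicates 1, 6 and 7 and WG replicate 31 lie above 1000 TPM of lymphocyte markers, and the WL libraries hold 1.06 to 3.23% of mitochondria-encoded TPM against 1.18 to 31.6% in WG.

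Of 13918 coding genes tested, 1149 were higher and 1276 lower in WL than in WG, 17.4% in all, 8.26% higher and 9.17% lower. A differentially expressed gene (DEG) had a fold change above 1.5 and an adjusted p below 0.05 in edgeR's quasi-likelihood test with Benjamini-Hochberg adjustment, the source of each adjusted p of expression given here. The median log2 fold change over all genes tested was -0.02. Without the 4 lymphoid-rich libraries, 363 genes were higher and 461 lower, 5.92% of those tested. That fit holds fewer WL libraries and so has less power. A count of 0 in a short gene list is near that share and is no result about the list. With the mitochondria-encoded share as a covariate, 1225 were higher and 880 lower, so that 58.2% of the calls were higher against 47.4% without it. Called in the same direction in all 3 of these fits were 163 higher and 246 lower genes. The values of the 36 WG and 10 WL libraries did not overlap for 4 genes. These were ME1, AGT, ZRSR2, which codes for a splicing factor, and the zinc finger gene ZNF10, all 4 named after their values were seen. ZRSR2 was at 71.5 to 217 TPM in WG and 15.4 to 65.3 TPM in WL (log2 fold change -1.93 ± 0.22, SE, adjusted p = 5.55e-08). ZNF10 was at 2.72 to 6.65 TPM in WG and 6.80 to 9.69 TPM in WL, a log2 fold change of 0.59 ± 0.08 (SE, adjusted p = 1.49e-06) that was just past the fold limit and below it in the other 2 fits.

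De novo lipogenesis fell in WL. Of 18 genes of the list tested, 14 were lower and 0 higher, with a median log2 fold change of -1.43. The list held 11 lower genes without the lymphoid-rich libraries (median -1.20) and 13 with the mitochondria-encoded share as a covariate (median -1.44). The largest fall of any gene named here was in FASN, the fatty acid synthase. It ranged from 47.3 to 9973 TPM in WG (median 1248 TPM) and from 9.82 to 76.1 TPM in WL (median 27.8 TPM), against a median of 1623 TPM in NC. The groups overlapped only at the low end of WG, and the log2 fold change was -5.57 ± 0.64 (SE, adjusted p = 5.55e-08).

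ME1, the malic enzyme that supplies NADPH for the synthase, lay at 63.9 to 949 TPM in WG (median 323 TPM) and at 9.68 to 56.3 TPM in WL (median 30.9 TPM). Every WL library was below every WG library, with a log2 fold change of -3.52 ± 0.39 (SE, adjusted p = 2.23e-08). SCD, which puts the double bond into stearic acid, was at 62.7 to 9388 TPM in WG (median 1359 TPM) and 12.5 to 772 TPM in WL (median 121 TPM). No WL library reached the WG median, and SCD fell by 3.25 on the log2 scale (adjusted p = 0.00013). ACLY, which makes cytosolic acetyl-CoA from citrate, was at 61 to 2529 TPM in WG and 38 to 70.7 TPM in WL, where its 10 values lay close together. The log2 fold change of ACLY was -2.76 ± 0.47 (SE, adjusted p = 3.01e-05). The acetyl-CoA carboxylase ACACA fell by 1.71 on the log2 scale (medians of 313 TPM in WG and 103 TPM in WL), the elongase ELOVL6 by 1.96 (567 and 156 TPM) and the transketolase TKT of the pentose phosphate pathway by 1.53 (355 and 138 TPM). SREBF1 itself did not pass the test, with a log2 fold change of -0.65 (adjusted p = 0.0887) and medians of 23.9 TPM in WG and 13.4 TPM in WL. MLXIPL did, from 5.26 to 107 TPM in WG (median 32.7 TPM) to 2.04 to 10.3 TPM in WL (median 5.15 TPM), with no WL library above the WG median. It fell by 2.87 (SE 0.43, adjusted p = 5.94e-06), and its call was kept in both other fits.

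**Figure D2:**
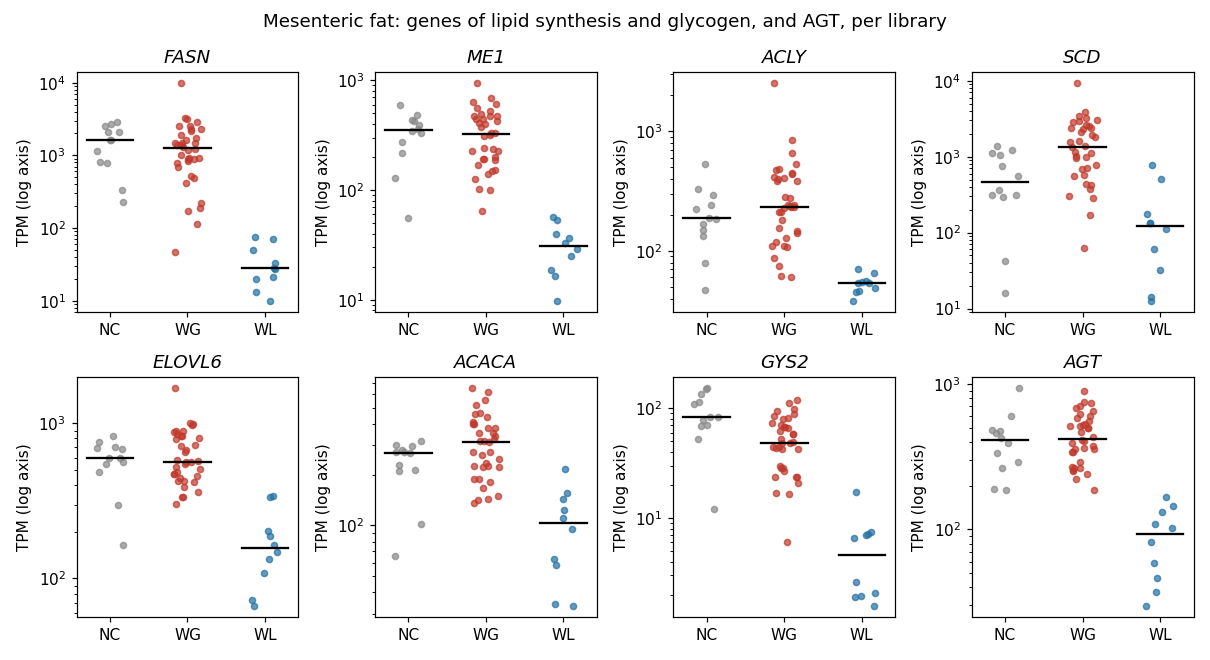
TPM (log axis) of 8 genes in each MAD library of the NC, WG and WL groups, 1 point per library, with the group median as a black line. For ME1 and AGT every WL point lies below every WG point, and for FASN the WL median is 27.8 TPM against 1248 TPM in WG.

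The promoters of 2 of these genes are shown, since both fell with the list and both windows hold a motif that was searched. The windows run from 250 bases before to 50 bases after the start that RefSeq annotates on Sscrofa11.1, 5′ to 3′ on the strand of the gene, with the E-box CACGTG and the CCAAT box (CCAAT or its complement ATTGG) in capitals. ACLY lies on the plus strand at chr12:20796428-20796727 and SCD on the plus strand at chr14:111461310-111461609.
ACLY: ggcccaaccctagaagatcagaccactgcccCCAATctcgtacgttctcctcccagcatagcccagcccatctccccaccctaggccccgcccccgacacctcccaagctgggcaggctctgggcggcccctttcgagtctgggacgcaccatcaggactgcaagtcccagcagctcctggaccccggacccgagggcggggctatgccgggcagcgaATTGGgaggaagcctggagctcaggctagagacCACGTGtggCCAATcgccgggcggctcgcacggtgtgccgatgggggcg
SCD: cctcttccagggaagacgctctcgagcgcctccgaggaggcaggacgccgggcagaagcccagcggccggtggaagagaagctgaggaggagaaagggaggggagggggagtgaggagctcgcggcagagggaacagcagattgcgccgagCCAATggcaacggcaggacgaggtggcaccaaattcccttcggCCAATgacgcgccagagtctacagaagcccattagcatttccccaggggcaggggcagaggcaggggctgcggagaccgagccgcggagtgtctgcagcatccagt
Over both strands, CCAAT stood in 10 of the 18 windows of the list (55.6%) and in 35% of all 13518 windows. CACGTG stood in 3 of the 18 (16.7%) and in 8.68% of all. The SREBP core TCACCCCAC was in 0 of the 18 windows and 0.444% of all. The window of FASN, counted among the 18, held none of the 3 motifs, and its annotated start lies next to the start codon, so that it may not cover the promoter. Such matches describe letters in a window and are not binding sites.

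Some genes of triglyceride synthesis fell, and genes of lipolysis moved both ways. Of 9 genes of triglyceride synthesis tested, 3 were lower and 0 higher (median log2 fold change -0.52). These were the acyltransferase DGAT2 (-1.51, adjusted p = 0.00356), the phosphatidate phosphatase LPIN1 (-1.10, adjusted p = 0.000457) and the acyl-CoA synthetase ACSL1 (-0.79, adjusted p = 0.0204). Without the lymphoid-rich libraries only LPIN1 of the 3 remained called. Of 10 lipolysis genes 4 were higher and 4 lower. The triglyceride lipase PNPLA2 (log2 fold change -0.96, adjusted p = 0.0142) and the hormone-sensitive lipase LIPE (-0.63, adjusted p = 0.0115) fell, as did PDE3B (-0.81), the phosphodiesterase through which insulin restrains lipolysis. Higher were G0S2, an inhibitor of PNPLA2, the adrenergic receptor ADRA2A (medians of 2.02 TPM in WG and 6.72 TPM in WL) and NPR3, a clearance receptor of natriuretic peptides (log2 fold change 1.04). G0S2 was at 8.91 to 333 TPM in WG (median 68.4 TPM) and 57.2 to 893 TPM in WL (median 231 TPM), above the WG median in 9 of 10 WL libraries. Its log2 fold change was 1.77 ± 0.36 (SE, adjusted p = 0.00026). With the covariate it was 0.74 (adjusted p = 0.0461), and with both changes G0S2 was not called (adjusted p = 0.0561). Without the lymphoid-rich libraries 3 genes of the list were higher and 1 lower. The calls of PNPLA2 (-0.77), LIPE (-0.40) and ADRA2A (0.85, adjusted p = 0.0777) were lost. Among 9 genes of fatty acid uptake 1 was higher, 1 lower and 7 not called, beside 17.4% called over all genes tested. These calls describe single genes and not the list. The lipoprotein lipase LPL fell from a median of 1674 TPM to 740 TPM (log2 fold change -1.24 ± 0.20, SE, adjusted p = 1.06e-05). GPIHBP1, which anchors that lipase to capillaries, rose by 0.87 (adjusted p = 0.00183). The call of GPIHBP1 was lost with the covariate (0.47).

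Some genes of glucose handling and amino acid breakdown fell. GYS2, a glycogen synthase, was at 6.07 to 118 TPM in WG (median 48.7 TPM) and 1.56 to 17.1 TPM in WL (median 4.62 TPM). Its log2 fold change was -3.42 ± 0.41 (SE, adjusted p = 1.47e-07), with no WL library above the WG median. PFKFB1, a bifunctional enzyme that controls glycolysis, fell by 3.11 (adjusted p = 0.000174) and the fructose transporter SLC2A5 by 2.45 (adjusted p = 4.47e-05). In the insulin and glucose uptake list 4 of 16 genes were lower and 0 higher, among them HK2 (-1.12) and GYS1 (-1.02). Without the lymphoid-rich libraries 1 of the 16 was lower, and neither HK2 (-0.72) nor GYS1 (-0.91) was called. With the covariate GYS1 was at -0.08. In the breakdown of branched-chain amino acids 6 of 16 were lower and 0 higher (median -0.54), led by MCCC2 of leucine breakdown. MCCC2 was at 52.2 to 292 TPM in WG and 20.6 to 70.7 TPM in WL, a log2 fold change of -1.97 ± 0.25 (SE, adjusted p = 3.13e-07). AUH (-1.24), ALDH6A1 (-1.16) and PCCA (-0.74) also fell. Of the 16, 4 were lower without the lymphoid-rich libraries and 9 with the covariate.

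In mitochondria, 7 of 18 genes of the tricarboxylic acid cycle and its pyruvate step were lower and 0 higher, among them PDHA1 (-1.06) and the citrate synthase CS (-0.74). Of the 18, 4 were lower without the lymphoid-rich libraries and 5 with the covariate. Of 22 genes of fatty acid oxidation, 4 were lower (HADH, ECHS1, PPARA and ACADL, -0.59 to -0.75) and 0 higher. Without the lymphoid-rich libraries 0 of the 22 were called, beside 5.92% of all genes tested. That 0 is near this share and is no result about the list. With the covariate 10 were lower, beside 15.1% called over all genes tested in that fit. All 12 mitochondria-encoded genes tested were lower in WL, with a median log2 fold change of -2.91. ND4, a subunit of complex I, ranged from 110 to 31200 TPM in WG and from 68 to 753 TPM in WL (adjusted p = 0.000696). In WG it was at 1820 TPM or less or at 7487 TPM or more, and the lower WG libraries overlapped the WL range. NC libraries were split as well, at 401 TPM or less or at 14640 TPM or more. The cause of the split was not tested. With the mitochondria-encoded share as a covariate, which is the sum of the mitochondria-encoded genes themselves, 2 of the 12 were higher and 1 lower. The 33 nuclear-encoded respiratory chain genes held 3 lower and 0 higher genes, with a median of -0.24. That count is near the 9.17% called lower over all genes tested and is no result about the list. With the covariate 11 of the 33 were lower (median -0.44), and without the lymphoid-rich libraries 1 was.

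Secreted and regulatory genes of the adipocyte divided. AGT, which codes for angiotensinogen, was at 186 to 896 TPM in WG (median 421 TPM) and 29.5 to 168 TPM in WL (median 92.6 TPM). The groups did not overlap, and the log2 fold change was -2.36 ± 0.25 (SE, adjusted p = 1.68e-08). The retinol carrier RBP4 fell by 0.70 (adjusted p = 0.0486), a call lost with either of the changes in libraries or covariate. CFD, which codes for adipsin, rose in all 10 WL libraries above the WG median, from a median of 361 to 661 TPM (log2 fold change 0.83 ± 0.14, SE, adjusted p = 1.85e-05). With the covariate CFD was at 0.51, under the fold limit of 1.5, and was not called. Leptin (LEP) was at a median of 322 TPM in WG, 316 TPM in WL and 78.3 TPM in NC, and its log2 fold change of -0.25 did not pass the test (adjusted p = 0.462). ADIPOQ did not pass either (-0.30, adjusted p = 0.408), nor did PLIN1 (-0.49, adjusted p = 0.0605). In a permutation test on TPM, with the lymphoid-rich libraries included, PLIN1 was lower (means of 882 TPM in WG and 646 TPM in WL, p = 0.0226). By the same permutation test LIPE (616 and 408 TPM, p = 0.00328) and FABP4 (11527 and 8469 TPM, p = 0.00922) were lower too. ADIPOQ (permutation test, p = 0.346) and CIDEC (p = 0.671) were not. Among 14 adipocyte transcription factors, PPARG (-0.77, adjusted p = 0.0017), KLF9 (-0.82) and ZNF423 (-0.84) were lower. None of the 14 was called without the lymphoid-rich libraries, beside 5.92% of all genes tested. The median of the list was 0.09 there. Of 9 genes of the glucocorticoid list, FKBP5 (-1.14, adjusted p = 0.000147), PER1 (-1.06) and ZBTB16 (-0.84) fell and the phosphatase DUSP1 rose (0.60). FKBP5 and DUSP1 kept their calls without the lymphoid-rich libraries, and DUSP1 lost it with the covariate (0.42). CHAC1, a glutathione-degrading enzyme of the amino acid stress response, fell from a median of 9.53 TPM to 1.54 TPM (-3.29, adjusted p = 1.72e-05). LRP2 fell by 3.15 in the fit (adjusted p = 0.0222), but its medians were 0.914 TPM in WG and 0.612 TPM in WL, and 1 WG library held 240 TPM. The call of LRP2 was lost in both other fits.

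Matrix genes were lower in WL. Of 13 fibrillar and type VI collagens, 5 were lower and 0 higher (median -0.65), and of 16 matrix glycoproteins and crosslinking enzymes, 9 were lower and 0 higher (median -0.73). COL1A1, a chain of type I collagen, was at 22.6 to 676 TPM in WG (median 123 TPM) and 11 to 66.3 TPM in WL (median 30 TPM). It fell by 2.42 (SE 0.48, adjusted p = 0.000179), and no WL library reached the WG median. COL5A2 (-1.11), COL5A1 (-1.22), COL1A2 (-0.79), the lysyl oxidases LOXL2 (-0.98) and LOXL1 (-0.94), SPARC (-0.89) and DCN (-0.74) also fell. Without the lymphoid-rich libraries 2 collagens and 6 of the glycoprotein list were still lower, and COL1A1, COL5A2, LOXL1, LOXL2 and SPARC were among them. With the covariate 6 collagens (median -0.51) and 7 of the glycoprotein list (median -0.45) were lower. There COL1A1 was at -1.39 and COL5A1 was not called (-0.51, adjusted p = 0.199). With both changes in 1 fit, 2 collagens and 2 of the glycoprotein list were lower. COL1A1 (-1.18, adjusted p = 0.0933), LOXL2 and SPARC were then not called.

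**Figure D3:**
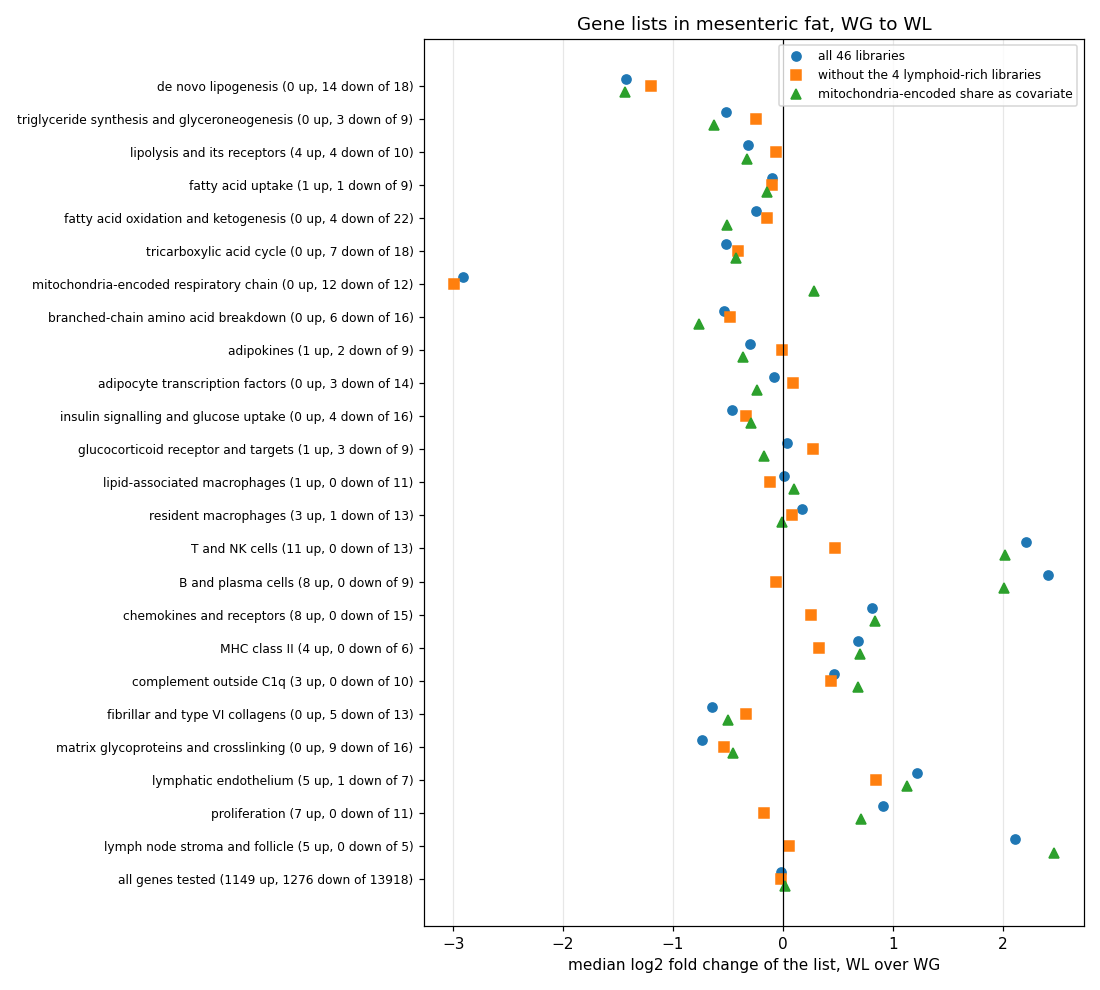
Median log2 fold change of each gene list, WL over WG, in all 46 libraries (circles), without the 4 lymphoid-rich libraries (squares) and with the mitochondria-encoded share of TPM as a covariate (triangles). Counts of called genes in brackets are from all libraries: the lipogenesis median is -1.43 with 14 lower of 18, and the T and NK cell median of 2.21 is 0.47 without the 4 libraries.

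Lymphocyte genes were higher in WL, in a rise that rested on a few libraries. Of 13 T and NK cell genes 11 were higher and 0 lower (median 2.21), and of 9 B and plasma cell genes 8 were higher and 0 lower (median 2.41). Without WL replicates 1, 6 and 7 and WG replicate 31, 1 of the 13 and 2 of the 9 were called, with medians of 0.47 and -0.06. Those libraries were set apart by the sum of these same markers, so the loss of calls in these lists follows from the choice. It is no separate test of them. CD3E, a chain of the T cell receptor complex, was 48.7, 107 and 96 TPM in WL replicates 1, 6 and 7 and 4.89 to 11.2 TPM in the other 7. MS4A1, the B cell antigen CD20, was 61.9, 236 and 117 TPM in those 3 replicates and 0.734 to 2.77 TPM in the other 7. JCHAIN, the joining chain of secreted antibodies, reached 7366 TPM in WL replicate 7 and was 36.4 TPM in replicate 8. Its call remained without the 4 libraries (log2 fold change 1.38) and was lost with the covariate (2.01, adjusted p = 0.0928). CD3D lay above the WG median of 4.96 TPM in all 10 WL libraries, from 5.56 to 145 TPM.

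The 12 genes with the largest rise belonged mostly to these cells. They included the lymph node homing receptor CCR7 (3.23 ± 0.50, SE, adjusted p = 7.28e-06), the B cell factor SPIB (3.42), CD79B (3.18), CCR9 (3.16), FCMR (2.77), TNFRSF9 (2.91) and the chemokine CCL17 (3.02). CLEC4G, a lectin of sinusoidal endothelium, rose by 3.84 and MARCO, a scavenger receptor of macrophages, by 3.71 (adjusted p = 5.48e-06). DAPL1 rose by 2.90. Of these 12, only CLEC4G and JCHAIN remained called without the 4 libraries. For genes of lymphocytes, here and in the lists that follow, such a loss comes from how the libraries were chosen. All 5 lymph node stroma and follicle genes tested were higher (median 2.11), and 0 of the 5 without the 4 libraries (median 0.05). Of 15 chemokines and receptors 8 were higher and 0 lower, and 0 without the 4 libraries. CXCL9 (2.11), CXCR4 (1.58) and CCL19 (medians of 117 TPM in WG and 167 TPM in WL) were among the 8. Of 11 proliferation genes 7 were higher, among them TYMS (medians of 1.87 and 2.81 TPM), MCM5 (0.87) and AURKB (0.83), and 0 without the 4 libraries. Of 6 MHC class II genes 4 were higher, with SLA-DQB1 at 1.01 (adjusted p = 0.00107), and 1 without the 4 libraries. SLA-DQB1 was not called with the covariate (0.43).

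A few macrophage genes were called, in both directions. Of 13 genes of resident macrophages, MARCO, C1QA (0.87) and C1QC (0.64) were higher and the haemoglobin scavenger CD163 lower (-0.79, adjusted p = 0.0188). None of the 13 was called without the lymphoid-rich libraries, beside 5.92% of all genes tested. Of 11 genes of lipid-associated macrophages only ACP5, the tartrate-resistant acid phosphatase, was called, beside 17.4% called over all genes tested. The median of the list was 0.01, and this call describes the single gene and not the list. ACP5 was at 2.33 to 110 TPM in WG (median 15.1 TPM) and 8.42 to 246 TPM in WL (median 56.9 TPM), higher than the WG median in 9 of 10 WL libraries. Its log2 fold change was 2.28 ± 0.40 (SE, adjusted p = 3.35e-05), and 1.59 without the 4 libraries, still called. Among inflammatory genes that the study takes as markers of obesogenic memory, a lasting inflammation of fat after weight loss, IL6 fell from a median of 32.4 TPM in WG to 18.1 TPM in WL (log2 fold change -0.89 ± 0.32, SE, adjusted p = 0.028). NC pigs were at 8.96 TPM. The call of IL6 was lost without the 4 libraries (-0.69). CCL2 (0.43, adjusted p = 0.318) and IL10 (0.55, adjusted p = 0.132) did not pass. CCL3L1 was at a median of 7.48 TPM in WG and 6.01 TPM in WL and did not pass (-0.21, adjusted p = 0.667). TNF was not matched to a gene symbol here.

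Most lymphatic endothelium genes and some complement genes were higher in WL, and several of these calls held without the lymphoid-rich libraries. Of 7 lymphatic endothelial genes 5 were higher and 1 lower (median 1.22), with 3 higher and 0 lower without the 4 libraries. With the covariate 5 were higher and 0 lower. The 1 lower gene went against the others, is not among those named below, and lost its call in both other fits. FLT4, the receptor of the lymphatic growth factor VEGFC, was at 3.24 to 21.6 TPM in WG (median 8.17 TPM) and 12.4 to 51.3 TPM in WL (median 20.2 TPM). All 10 WL libraries exceeded the WG median, with a log2 fold change of 1.22 ± 0.19 (SE, adjusted p = 9.13e-06) and of 1.20 without the 4 libraries. RELN (1.26), MMRN1 (1.45) and CCL21 (1.61) were also higher, and so was PROX1 (0.92, adjusted p = 0.0446), the factor that defines lymphatic cells. Of those, CCL21 and PROX1 lost the call without the 4 libraries. Of 10 complement genes C7 (1.39), CFB (1.05) and C6 (1.64) were higher and 0 lower, with 4 higher without the 4 libraries. With the covariate none of these 3 was called (C7 0.93, CFB 0.71 and C6 1.56, adjusted p = 0.0559, 0.134 and 0.0591). Other members of the list were, so that it still held 3 higher genes of 10. Its median was 0.68 with the covariate and 0.46 without it. C7 rose from a median of 59.7 TPM to 197 TPM and lay above the WG median in all 10 WL libraries.

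The change from WG to WL was then compared with that in greater omentum (GOM), retroperitoneal fat (RAD) and the upper layer of backfat (ULB) of the same groups, in 1 fit over 198 libraries with a test of the difference itself. Lipogenic genes fell in all 4 depots. The log2 fold change of FASN was -5.55 in MAD, -4.92 in GOM, -5.31 in RAD and -3.97 in ULB, and the differences did not pass the test (adjusted p = 0.936, 0.959 and 0.0911). The difference of MAD from ULB was -1.57 ± 0.60 (SE). ME1 fell by 3.51, 3.06, 2.74 and 2.78 on the log2 scale in MAD, GOM, RAD and ULB. No gene of the lipogenesis list differed between MAD and another depot. The mitochondria-encoded list also fell in all 4, with medians of -2.9, -2.94, -2.88 and -3.12 in MAD, GOM, RAD and ULB. None of its genes differed between MAD and another depot. GYS2 fell by 3.41 in MAD and by 1.43 in ULB (adjusted p of the difference = 0.00353), and AGT by 2.35 and 1.19 (adjusted p = 0.00981). Both of these differences were lost without the 4 lymphoid-rich libraries (adjusted p = 0.17 and 0.31).

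Of 14445 genes tested, the change differed at an adjusted p below 0.05 for 438 between MAD and GOM (3.03%), 505 between MAD and RAD (3.5%) and 1091 between MAD and ULB (7.55%). Against all 3 depots, 286 genes were more positive in MAD and 3 more negative. The 8 with the smallest p in the weakest of the 3 comparisons were TNFRSF9, TMC8, IL21R, ACAP1, CCR7, CCR4, CARMIL2 and RIPOR2, most of them known from lymphocytes. CCR7 rose by 3.25 in MAD, and its log2 fold change was 0.12 in GOM, -0.07 in RAD and 0.44 in ULB (adjusted p of the differences 9.61e-06, 1.34e-06 and 1.96e-05). The 3 more negative genes, named after their values were seen, were SEMA3C, SULF1 and KIF21A. SULF1, a sulfatase that edits heparan sulfate outside the cell, fell by 0.81 in MAD and had changes of -0.11, -0.18 and -0.03 in GOM, RAD and ULB. Without the 4 lymphoid-rich libraries 1, 0 and 70 genes differed from GOM, RAD and ULB (362, 315 and 1163 at an unadjusted p below 0.05). Of the 286 and the 3 genes, 0 and 0 passed against all 3 depots. For genes of lymphocytes this loss follows from the choice of libraries and is no separate test. Only MAD libraries were left out, so WL MAD then held fewer libraries than WL in the other depots. The depots of a pig are not independent, and the pig was not a term of the fit.

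**Figure D4:**
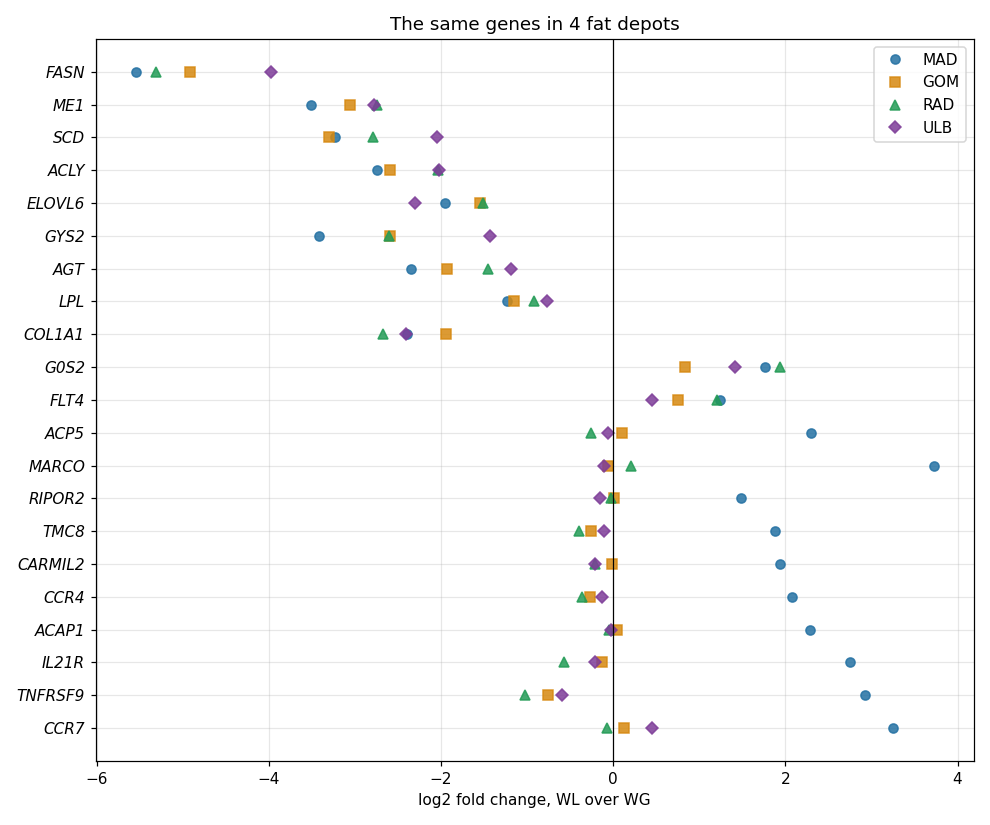
Log2 fold change, WL over WG, of 21 genes in MAD (circles), GOM (squares), RAD (triangles) and ULB (diamonds), from 1 fit over the 4 depots. FASN lies between -3.97 and -5.55 in all 4, while CCR7 is at 3.25 in MAD and between -0.07 and 0.44 in the others.

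Hi-C divides chromosomes into an open compartment A and a closed compartment B. The deposited A-B index is positive in A and negative in B for each bin of 20 kb. The share of bins in A was 48.4% ± 1.48 (SD, n = 37) in WG and 49.6% ± 1.03 (SD, n = 10) in WL, with a difference of 1.20 percentage points (permutation test, two-sided, p = 0.00472). NC was at 47.4%. Without WL replicate 10, which lay at 46.9%, the difference was 1.51, and without WG replicates 1, 2 and 12, which were below 46%, it was 0.859 (p = 0.00984). The mean index over all bins did not differ beyond its spread (difference 0.063, p = 0.264).

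Of 113298 bins, 4.91% had an adjusted p below 0.05 in limma. The share was 9.41% without WL replicate 10, 2.2% without WL replicate 7 and 0.161% without the Hi-C libraries numbered like the lymphoid-rich RNA libraries. This last fit leaves out WL replicates 1, 6 and 7 and WG replicate 31, on the assumption that a number marks the same pig in both assays. A/B variables, which kept their compartment and differed by more than 0.75 in the index with an adjusted p below 0.05 in limma, numbered 896 (0.791%), 723 higher and 173 lower in WL. After quantile normalization of the index, 482 were higher and 290 lower, so that 62.4% were higher against 80.7% before it. Without the 3 WG libraries 449 were higher and 307 lower. Leaving out WL replicate 7 gave 583 variables and leaving out WL replicate 10 gave 2006. Leaving out the Hi-C libraries numbered like the lymphoid-rich RNA libraries gave 111. Of the 896, 443 lay in A and were higher, 280 in B and higher, 54 in A and lower, and 119 in B and lower. Most were single bins, 586 of 696 runs. The longest run was chr6:65500001-66080000 around AJAP1, 29 bins in B, where the mean index rose from -3.32 ± 0.572 (SD) in WG to -2.28 ± 0.46 in WL. A run of 10 bins in A at chr1:14960001-15160000 held the start of AKAP12. Chromosomes 1, 6 and 8 held 209, 172 and 132 of the variables, and 100 of those on chromosome 8 were lower.

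**Figure D5:**
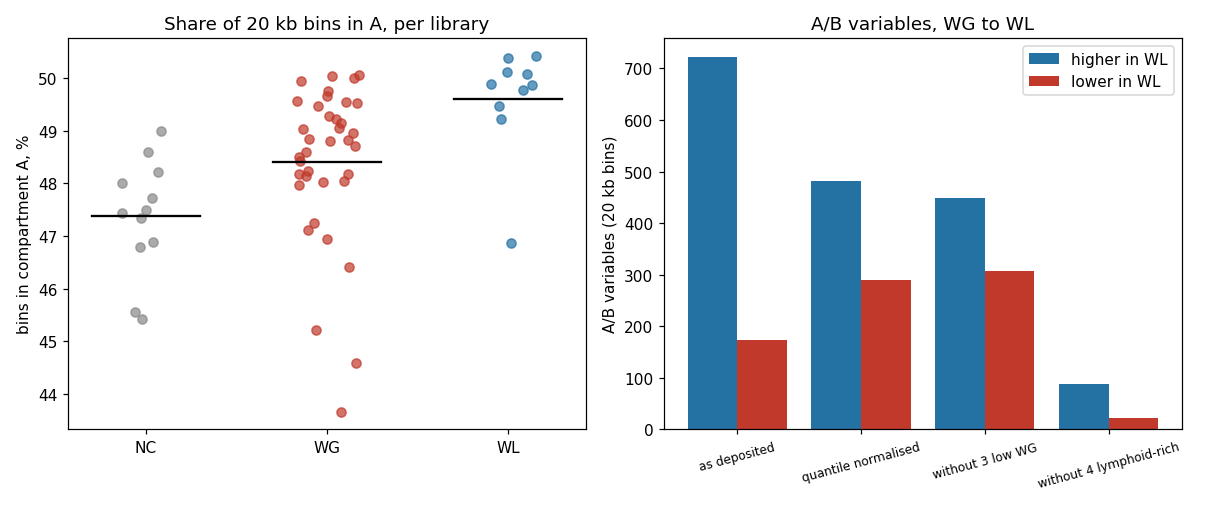
Left, the share of 20 kb bins in compartment A in percent, 1 point per Hi-C library of MAD in the NC, WG and WL groups, with the group mean as a black line. Right, bars from 0 give the number of A/B variables higher (blue) and lower (red) in WL as deposited, after quantile normalization, and with libraries left out. The 723 higher and 173 lower bins become 482 and 290 after quantile normalization.

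A/B switches, with over 80% of libraries in opposite compartments, numbered 8 (0.00706%), 7 from B to A and 1 from A to B. The bin chr6:41380001-41400000 in TSHZ3, a zinc finger gene, was in A in 5.41% of WG and 100% of WL libraries, with a mean index of -0.61 and 0.44. Other switched bins overlapped SSBP2, ACAN and PRIMA1. A frequency change, from at most 30% to at least 70% of libraries in A or the reverse, was seen in 320 bins (0.282%), 262 toward A and 58 away from it. After quantile normalization they were 139 and 133, and no bin switched from B to A while 5 switched from A to B.

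Few genes changed both in expression and in compartment. Of 107 tested genes that started in an A/B variable, 10 were higher and 16 lower in WL (24.3% called, against 16.7% of all genes with a start in a bin). The 10 with the largest index difference were AKAP12, MCM2, ZBTB43, ZBTB45, GALNT12, LIPG, RASAL3, WIZ, CLMN and PDHB. All 10 started in A and had a higher index in WL. MCM2, a replication licensing factor (expression 0.91 and index difference 0.95), ZBTB45 (0.69 and 0.90), GALNT12 (0.70 and 0.89), the endothelial lipase LIPG (0.91 and 0.88) and RASAL3 (2.30 and 0.87) rose in expression. AKAP12, an anchor of protein kinase A (-0.69 and 0.99), ZBTB43 (-0.79 and 0.92), CLMN (-1.25 and 0.86) and PDHB of pyruvate dehydrogenase (-0.99 and 0.85) fell, and so did WIZ (-1.05), which shares its bin with RASAL3. Of the 10, only GALNT12, ZBTB43 and CLMN were still called in expression without the 4 lymphoid-rich libraries. Genes that rose, fell or were not called had median index differences of 0.077, 0.109 and 0.096.

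The index at the starts of the lipogenic genes was also read. In 0 of 17 lipogenesis genes with a start in a bin did the index have an adjusted p below 0.05 (5.2% of all gene starts did), and their median index difference was 0.009. A count of 0 of 17 is near what that share gives and is no result about the list. FASN started in A in every library, with an index of 5.07 ± 0.397 (SD, n = 37) in WG and 4.87 ± 0.296 (SD, n = 10) in WL (limma, adjusted p = 0.405). ME1, whose values did not overlap in expression, started in B, at -0.98 and -0.96. Of the 12 T and NK cell genes with a start in a bin 2 had an adjusted p below 0.05, and 0 were A/B variables.

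Topologically associating domains (TADs), the blocks within which contacts are frequent, numbered 4882 ± 127 (SD, n = 37) in WG and 4795 ± 75.1 (SD, n = 10) in WL, a difference of -86.9 (permutation test, two-sided, p = 0.0472). TADs of at least 200 kb differed by -24.1 (p = 0.32). The mean of the median TAD length was 353 kb in WG and 364 kb in WL (permutation test, p = 0.0141). Of 10270 boundaries, collapsed within 100 kb, 11 were gained and 7 lost in WL (0.175%), where a change ran from under 30% of libraries to at least 70% or the reverse.

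H3K27ac, an acetylated histone of active enhancers, was deposited as regions pooled over libraries, so no test was possible. The WL MAD table held 25450 regions, of which 1431 were marked as super-enhancers, from 3 H3K27ac libraries. These were replicates 4, 5 and 7, of which replicate 7 has the number of the RNA library richest in lymphocyte markers. The 3 WG tables belong to subgroups that the study formed from estimated cell composition. They held 22368, 25398 and 23198 regions in groups 2, 4 and 5, with 847, 503 and 1404 super-enhancers, from 2, 2 and 10 libraries. Of the WL regions 75.4%, 71.9% and 79.1% shared at least 1 base with groups 2, 4 and 5, and 91.8%, 84.8% and 92.3% of their regions were shared with WL. Within 50 kb of the start of FASN lay 7 regions in WL and 2, 9 and 7 in groups 2, 4 and 5, of which 1 in WL and 1 in group 5 were super-enhancers.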

How the data were processed

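RNA-seq, Hi-C and H3K27ac ChIP-seq of MAD were used as deposited. The authors estimated transcript counts with kallisto 0.43.0 against Sscrofa11.1 and summed them per gene with tximport; the deposited expected counts were rounded before testing, and the deposited TPM served for levels and filters. The A-B index score was made by the authors from contact matrices balanced and normalised between samples (Juicer, BNBC), and the deposited TAD calls are from deDoc. The ROSE signal tables were made by the authors from pooled libraries (BWA 0.7.15, SAMtools 1.3.1, SICER), and only their positions and super-enhancer marks were used. Columns of no sample used here, 9 in each expression table, were left out. Groups came from the labels, WG against WL, and the main fits did not take replicate numbers to mark a shared pig. The Hi-C fit without libraries numbered like the lymphoid-rich RNA libraries assumed that a number marks the same pig in both assays. The labels do not say this.

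Genes above 0.5 TPM in at least 80% of the libraries of a group were tested with edgeR 4.0.16 (TMM, quasi-likelihood) in R 4.3.3, the index with limma 3.58.1, and single values by permutation test (100000 permutations). P-values measure the spread between libraries. Alternatives were RLE factors, no filter, the exact test of edgeR, DESeq2 1.42.0, a replicate block, each WL library left out, other index limits and quantile normalization. The mitochondria-encoded share as a covariate, the share on coding genes as a covariate, and fits without lymphoid-rich libraries or WG Hi-C libraries low in A were added after seeing the data. The fits were tested on simulated data.

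The comparison, the gene lists and the named genes were chosen with earlier results of these data known. Named were the 12 largest rises and 12 largest falls among called genes of at least 5 TPM in a group, up to 4 called genes per list, up to 10 called genes in changed bins, and 8 genes that differed from the other depots. ACLY, ACACA, SREBF1, MLXIPL, LEP, ADIPOQ, PLIN1, LIPE, PNPLA2, CD3E and PROX1 were added after their values were seen. Places were taken from RefSeq on Sscrofa11.1 for 13531 of 21280 genes, matched by symbol. The index carries no depth, so its precision is known only from the spread between libraries. TPM of near-identical genes such as SLA genes is uncertain, since estimated counts divide shared reads. The tables of noncoding transcripts were not used here.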

Additional observations from a re-analysis of the deposited data

Results flagged for a closer look

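In the 10 WL libraries, 8 of 38 measures had a lowest or highest value set apart from the others by more than Dixon's 95% critical value (0.466 for 10 libraries). Chance flags about 1 group in 20 only where values are normally spread and measures independent. TPM was not transformed and the lymphocyte measures share libraries, so the count cannot be set against that rate. Of the 8, 4 were the highest values of lymphocyte measures. The summed T and B cell markers reached 8971 TPM in WL replicate 7, JCHAIN 7366 TPM in replicate 7, MS4A1 236 TPM in replicate 6 and CD79B 180 TPM in replicate 6. The others were the share of bins in A of 46.9% in WL replicate 10 (next 49.2%), CYTB at 852 TPM and PFKFB1 at 3.57 TPM in replicate 4, and GYS2 at 17.1 TPM in replicate 2.

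The change from WG to WL differed between MAD and GOM by the test of the difference for the 8 genes named in the comparison of depots. The log2 change in MAD minus that in GOM was 3.68 for TNFRSF9, 2.14 for TMC8, 2.88 for IL21R, 2.24 for ACAP1, 3.12 for CCR7, 2.35 for CCR4, 1.94 for CARMIL2 and 1.47 for RIPOR2. None of the 8 differed without the 4 lymphoid-rich libraries. Those were set apart by lymphocyte markers, so for genes of lymphocytes the loss follows from the choice and is no separate test.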

How the results depend on the processing

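Under DESeq2, RLE factors, the exact test and no filter the number of DEGs stayed within 1.5 times the 2425 of the main analysis, and leaving out each WL library gave 1869 to 2644. With no filter 2028 were higher and 1375 lower of 20920 genes. The number was 824 without the 4 lymphoid-rich libraries, 1059 with the mitochondria-encoded share added to that, and 1290 with the share on coding genes as a covariate. Genes differing from GOM, RAD and ULB were 1, 0 and 70 without the lymphoid-rich libraries, and 768 (RAD) and 1786 (ULB) with the mitochondria-encoded share. The replicate block over the shared numbers 1 to 7, 9 and 10 gave 2320 DEGs against 2735 in the same libraries without it. These numbers do not pair the pigs: correlations of the deviations ran from -0.114 to 0.485. Of 9 WG libraries, 2 correlated best with the WL library of their own number.

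A/B variables were 3913 at a difference above 0.5, 312 at an adjusted p below 0.01, 111 without the Hi-C libraries numbered like the lymphoid-rich ones and 583 to 2006 with each WL library left out. Frequency changes were 35 at 80% and 20% and 149 to 285 with a WL library left out. Switches were 131 above 70%, 5 after quantile normalization, 25 without the Hi-C libraries numbered like the lymphoid-rich ones and 10 to 26 with a WL library left out. When WL libraries are left out, the percentage limits fall on other whole numbers of libraries. The counts of frequency changes and switches from such fits therefore cannot be set directly against the main counts. The mean index (difference 0.063) and TADs of at least 200 kb (-24.1) no longer passed. The difference in the share of bins in A was 1.51 without WL replicate 10. With a stricter overlap, the larger part of each region, 61.8%, 55.1% and 68.2% of WL regions were shared with groups 2, 4 and 5.

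Signs turned as follows, and the cause was not tested. With the mitochondria-encoded share the log2 fold change was 0.37 for CYTB, 0.82 for ND2, 0.61 for ND3, 0.47 for ND4, 0.15 for ND5, -0.0193 for SLA-DMB and 0.16 for WIZ. Without the lymphoid-rich libraries it was -0.089 for CCL2, 0.0139 for LEP, -0.12 for MCM2, -0.18 for MS4A1, -0.17 for PAX5 and -0.0849 for TMC8. With both changes it was 0.17 for AKAP12, -0.0027 for C1QC, 0.44 for CYTB, 0.0423 for GYS1, -0.41 for MCM2, 0.82 for ND2, 0.57 for ND3, 0.59 for ND4, 0.20 for ND5, 0.0169 for PER1, -0.20 for SLA-DMB, -0.10 for TYMS, 0.22 for WIZ and 0.12 for ZNF423. Depth allowed tests of 13918 genes, and the pooled H3K27ac tables allowed none.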
